A study of Triticum aestivum with 4 samples.

Results

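The regions described here are the 287 rows of the authors' CHH list whose orientation column reads downstream. They were taken by that column alone, out of 740 CHH regions and 3119 regions in the CpG, CHG and CHH lists together. CHH is a cytosine followed by A, C or T and then again by A, C or T. The list gives each region a position, the nearest gene with its strand, the distance to it and a methylation level in percent in each of 2 libraries.

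The label and the rest of the list did not say the same about the side of the gene. Where a gene was listed with 2 regions of the same label, with 1 of each label, or with a flanking and an overlapping region, the positions, distances and gene strands show on which side a flanking region lies. Over the 3 lists, 126 of 126 such comparisons placed the region labelled downstream on the 5′ side of its gene, where transcription starts, and 0 on the 3′ side. The regions labelled upstream lay on the 3′ side in 105 of 105 comparisons. TraesCS5A02G347300, on the plus strand, had regions at 5A:549795609-549795940 and 5A:549795941-549796279, given as 1718 and 1379 bp away. Both distances lead to the same gene edge, at 549797658, above the regions and so at the gene's start. Of the 287 members, 13 could be placed in this way, all 13 on the 5′ side, and 274 have no further listing that would place them. The orientation column or the strand column may run the other way. The orientation column, headed Feature Orientation, could also say where the gene lies as seen from the region, with neither column reversed. Which of these holds cannot be told from the lists, and no annotation of their build was used here. The members are therefore called regions labelled downstream, and nothing below is said of the ends of genes.

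The study asked what ultrasound given to seeds does to DNA methylation in the seedlings. Dry SE15 seeds, a winter wheat breeding line with 13.6% water, received ultrasound of 30 kHz and 70 W for 5 min in open dishes 4 cm from the head, or none, with 100 seeds in each group, and germinated in darkness at 20 °C. Seedlings were taken at 7 days. Each group has 2 libraries in the labels and 1 with levels in the lists, so the differences below have no replicate check and no p-value. Control and ultrasound below mean those libraries. The control column is headed by a K and a number, K stands unexplained, and it was taken as control number 1 because it is set against the ultrasound column. If that is wrong, so is the control side of every value.

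In plants CHH methylation has to be placed anew after each round of DNA replication, because the site has no matching cytosine on the other strand to copy from. It is laid down by DRM-type methyltransferases guided by small RNAs and by CMT2-type enzymes bound to heterochromatin. In grasses, short stretches of CHH methylation often lie close to genes, where transposons border them. Most of this is known from Arabidopsis and maize rather than wheat.

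Most regions labelled downstream had less CHH methylation in the ultrasound library. Of the 261 with a level in both libraries, 190 were lower and 71 higher, a share lower of 72.8% (95% exact binomial interval 67.0 to 78.1). Over all 668 CHH regions with levels, the share lower was 77.1% and the share higher 22.9%. Ultrasound minus control had a median of -10.6 percentage points, beside -11.2 points over all CHH regions, and the quartiles were -16.6 and 8.23 points. Levels had a median of 11.3% in control and 1.20% in ultrasound. The intervals given for shares cover the counting of regions only, since the reads behind a level are not given.

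The levels formed a pattern of presence in one library and near absence in the other. Among the 190 regions that were lower, the control level had a median of 14.7% (quartiles 10.2 and 21.4), and the ultrasound level had a median of 0.632%. Among the 71 that were higher, the ultrasound level had a median of 15.2% (quartiles 11.5 and 20.4), and the control level a median of 0.473%. So the levels of the methylated library were close in both directions, while the number of regions differed. All these regions were picked by the authors for a difference between the libraries. How far that selection shapes the pattern was not tested. The lower library was under 2% in 161 of the 190 regions, or 84.7% (78.8 to 89.5), and in 62 of the 71, or 87.3% (77.3 to 94.0). Over all CHH regions that share was 83.7%. Levels were listed at 0 in the control library for 20 of the 71 higher regions, and in the ultrasound library for 24 of the 190 lower ones. Only 5 of the 261 regions were above 5% in both libraries, and the highest level of any lower library was 10.5%. No such counts over all CHH regions are given here, so they are not read as particular to these members.

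**Figure D1:**
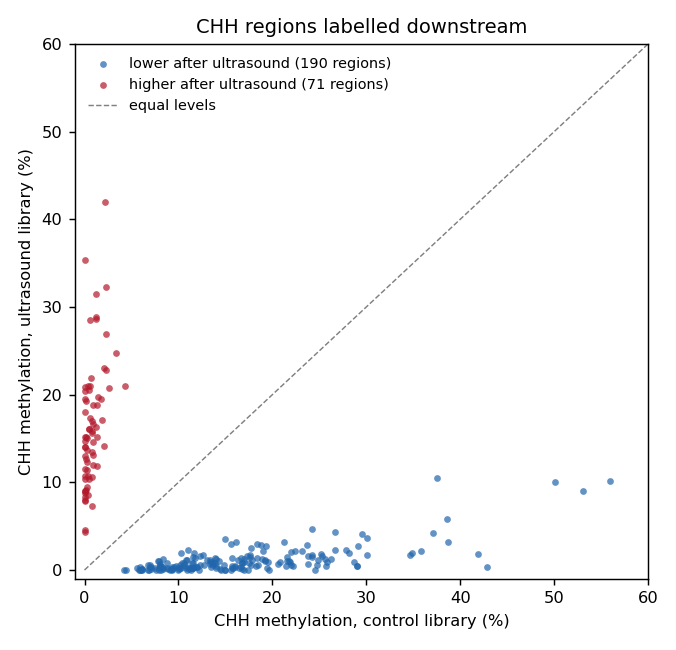
CHH methylation in percent of each of 261 regions labelled downstream, in the control library (x axis) and the ultrasound library (y axis); the dashed line marks equal levels. The 190 lower regions lie along the x axis and the 71 higher regions along the y axis, and no region above 5% in both libraries lies near the dashed line.

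Small differences were missing from the list, as it holds only regions that the authors had picked, and the smallest over all CHH regions was 3.35 points. Among the members, the smallest differences were those of TraesCS1B02G381800, at 4.23% in control and listed at 0 in ultrasound, of TraesCS7B02G415700, listed at 0 and at 4.31%, and of a DETOXIFICATION gene (TraesCS6B02G090100), at 4.37% and listed at 0. Regions that differed by at least 10 points made up 193 of the 261, beside 73.4% of all CHH regions, and 30 differed by at least 25 points, beside 12% of all. Of the 261, 23 were lower and 7 higher by that much, beside 9.58% lower and 2.4% higher of the 668 CHH regions with levels. Those 668 included 64 lower and 16 higher by that much.

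The largest decreases began from control levels far above the median of 11.3%, which follows from the ranking, as a decrease cannot exceed its control level. The region of TraesCS2A02G582000 (2A:774565792-774566131, 1857 bp from the gene) was at 55.9% in control and 10.1% in ultrasound. A region 10 bp from TraesCS4D02G320000 (4D:483452910-483453236) was at 53.1% and 8.99%, and one 622 bp from TraesCS2A02G025100 (2A:11983933-11984514) at 50.1% and 10.1%. In these 3 regions methylation was much lower but still above the levels of most other ultrasound values. Elsewhere nearly all of it was missing, as at TraesCS3D02G236800 (3D:327577701-327577991), at 42.8% and 0.292%, and TraesCS5D02G413400 (5D:476458835-476459189), at 41.9% and 1.78%. The other 3 of the 8 largest decreases, at TraesCS6A02G316500, TraesCS4B02G245700 and TraesCS2A02G280800, were from control levels of 34.7% to 38.7% to ultrasound levels of 1.72% to 3.18%. None of these 8 genes carries a description in the list.

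The largest increases began from levels near 0, as did all 71 higher regions, whose control levels were at most 4.36%. TraesCS3A02G047700 had the largest, at 2.18% in control and 42.0% in ultrasound (3A:25363356-25364214, 878 bp from the gene). TraesCS5D02G291900 was listed at 0 and at 35.3% (5D:389493019-389493853, 1130 bp). Both regions were long for the list, at 859 and 835 bp, where members with both levels had a median length of 345 bp. TraesCS3B02G170900 was at 1.25% and 31.5%, TraesCS7B02G384100 at 2.25% and 32.3%, TraesCS3A02G012200 at 0.581% and 28.5%, and TraesCS2D02G295000 at 1.25% and 28.8%. The remaining 2 of the 8 largest increases belonged to described genes, p34cdc2 and VPS34, given below.

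A description was given for the genes of 52 members. Of the 47 with levels, 36 were lower and 11 higher, or 76.6% lower (62.0 to 87.7), beside 72.0% (65.4 to 77.9) of the 214 without a description. Over all 107 described CHH regions 79 were lower. Words fixed for 10 gene groups matched members in 6 of the groups and left 27 described members in none, so the genes are also given by role, an order set after their values were seen. A gene could match the words of several groups, and every count over all CHH regions includes the members. In the word group for metabolism enzymes, 6 of 7 regions were lower, beside 19 of 22 in all CHH regions. Its only higher region, that of the ubiquitin transferase TraesCS7D02G196500, also counts under signalling and turnover. The glutathione peroxidase region (TraesCS4A02G142000) also counts under cell wall and redox. In the word group for transcription factors, 2 of 2 were lower, beside 3 of 3. No member matched the words for chromatin, transport, seed and hormone, or transposons. These words matched few regions in the whole list, with 2, 3, 1 and 0 regions with levels in all CHH regions. The transport words also miss some genes, such as the DETOXIFICATION efflux carriers named here.

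Genes of the cell cycle and of DNA replication and repair lay on both sides. p34cdc2 (TraesCS5A02G521700), a cyclin-dependent kinase that drives the cell cycle, had the largest increase among described genes, at 1.17% in control and 28.6% in ultrasound (5A:682923834-682924311, 2799 bp). DNA polymerase kappa (TraesCS4A02G234800), which copies past damaged bases, was at 11.4% and 0.249%. DNA polymerase eta (TraesCS3B02G329300), another enzyme of that kind, was at 6.76% and listed at 0. Both polymerases were thus lower, in regions 157 and 1201 bp from their genes. The region of the mismatch repair gene MSH6 (TraesCS5D02G212500) had no level in either library.

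In the word group for RNA and translation, 2 of 3 regions were lower, beside 4 of 6 in all CHH regions. Its members were the genes of a DNA-directed RNA polymerase, an rRNA N-glycosidase and ribosomal protein S12, and other genes acting on RNA were added after their values were seen. The region of a small nuclear ribonucleoprotein-associated protein (TraesCS2B02G270200), part of the machinery that splices RNA, was at 28.2% in control and 1.92% in ultrasound (2B:368416360-368417008, 742 bp). NOP53 (TraesCS1B02G105100), which acts in ribosome assembly, was at 21.9% and 2.07% in a region 107 bp from the gene. A gene of a DNA-directed RNA polymerase (TraesCS5D02G171600), an enzyme of transcription, was at 16.8% and 0.832%, 80 bp away. The rRNA N-glycosidase gene (TraesCS5A02G475300), of enzymes that inactivate ribosomes, was at 8.87% and 0.167%. These 4 regions had ultrasound levels of 0.167% to 2.07%. The cleavage and polyadenylation specificity factor subunit 2 gene (TraesCS5A02G453700), whose product acts in forming the 3′ ends of messenger RNA, was at 15.7% and 0.452%. The gene of ribosomal protein S12 of the small subunit (TraesCS5B02G425100) was higher, at 0.867% and 12.0%.

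Genes of the plastid and of iron were split. Tocopherol cyclase (TraesCS1B02G236600), an enzyme of vitamin E synthesis, was at 20.9% in control and 0.903% in ultrasound (1B:423652478-423652815, 112 bp). A chloroplast RAP domain protein gene (TraesCS3B02G102900) was at 21.6% and 1.53%. Other plastid genes went the other way, with Psb28 (TraesCS3B02G392800), a protein of photosystem II, at 1.82% and 17.1%, and SUPPRESSOR OF QUENCHING 1 (TraesCS4B02G181000), known in Arabidopsis from the control of light energy loss, at 0.202% and 15.1%. The word group for organelle energy held these 4 regions, 2 lower and 2 higher, beside 6 of 10 lower in all CHH regions. Among genes of iron use, an iron-sulfur cluster assembly gene (TraesCS3A02G240500) was at 2.33% and 22.8%. The CIAO1 homolog (TraesCS7A02G446500), of the cytosolic assembly of such clusters, was at 17.6% and 1.73%. A gene for the transcription factor FIT (TraesCS2B02G298600), which in Arabidopsis controls iron uptake by roots, was at 19.3% and 2.78% in a region 2764 bp away.

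**Figure D2:**
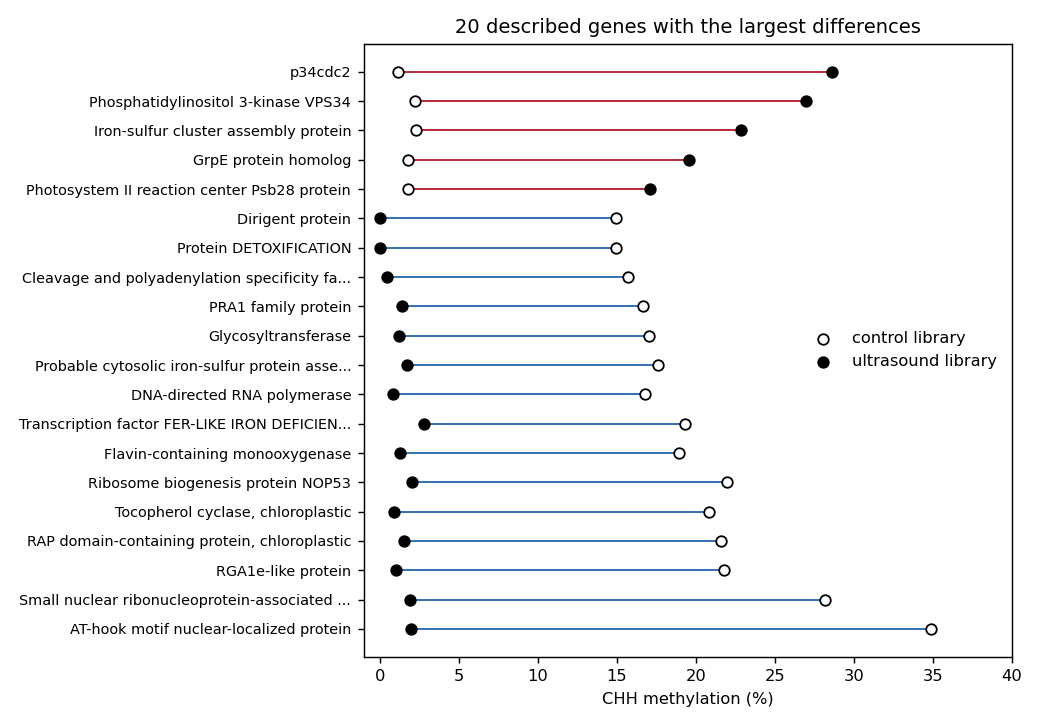
CHH methylation in percent (x axis) at the 20 regions with the largest absolute differences among described genes, with an open circle for the control library, a filled circle for the ultrasound library and a line joining them. The filled circles of 15 regions lie at 0 to 2.78%, and the 5 regions at the top have the order turned round, led by p34cdc2 at 1.17% and 28.6%.

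Signalling genes, and those of protein turnover, were evenly divided. The phosphatidylinositol 3-kinase VPS34 (TraesCS5A02G054400), a lipid kinase of membrane traffic and autophagy, was at 2.25% in control and 27.0% in ultrasound (5A:51205817-51206560, 956 bp). A phosphatidylinositol 4-phosphate 5-kinase gene (TraesCS4A02G271600), of another step of the same lipid family, was at 12.3% and 1.63%, and a mitogen-activated protein kinase gene (TraesCS1D02G422800), part of signalling cascades, at 11.1% and 0.128%. The 2 lipid kinases thus stood on opposite sides. Of 3 genes of E3 ubiquitin ligases, which mark proteins for breakdown, TraesCS3A02G101600 was at 0.301% and 9.48%, TraesCS7D02G196500 at 0.436% and 10.4%, and TraesCS3A02G369300 at 10.2% and 0.185%. In the word group, 3 of 6 regions with levels were lower, beside 9 of 12 in all CHH regions, these 6 included, and 3 more members lacked a level.

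The word group for cell wall and redox held 2 regions, both lower, beside 6 of 6 in all CHH regions. They were an expansin gene (TraesCS2B02G411700), which loosens cell walls, at 11.5% in control and 0.757% in ultrasound, and a glutathione peroxidase gene (TraesCS4A02G142000), whose product removes peroxides, at 8.30% and 0.267%. Further genes whose products act at membranes or in the wall were picked by eye after their values were seen, so their directions are no count of such genes. A DETOXIFICATION gene on unplaced sequence (TraesCSU02G003900), of a family of efflux carriers, was at 15.0% and listed at 0, as was a dirigent protein gene (TraesCS5D02G395900), of a family that steers the coupling of lignan precursors, at 15.0% and listed at 0. A sodium/hydrogen exchanger gene (TraesCS7D02G241200) was at 13.1% and 1.18%. A glutamate receptor gene (TraesCS5D02G226300) was at 9.23% and 0.100%. The regions of a PRA1 family gene (TraesCS3A02G104300), at 16.7% and 1.39%, of a CASP-like gene (TraesCS6B02G054000), at 11.0% and 2.27%, and of a WAT1-related gene (TraesCS7D02G403100), at 16.1% and 3.18%, were lower too. A lipid-transfer protein gene (TraesCS3B02G455200) was higher, at 0.275% and 12.3%.

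Of the remaining described genes, the AT-hook protein gene TraesCS1B02G056000, of a family of DNA-binding nuclear proteins, had the largest decrease of all 47, at 34.9% in control and 2.00% in ultrasound (1B:39072696-39072982, 2836 bp). A flavin-containing monooxygenase gene (TraesCS4D02G297600), for an oxidising enzyme, was at 18.9% and 1.31%. An RGA1e-like gene (TraesCS1D02G029100) was at 21.8% and 1.04%, and a glycosyltransferase gene (TraesCS1D02G062800) at 17.0% and 1.25%. The GrpE homolog (TraesCS5B02G173300), which serves Hsp70 chaperones, was higher, at 1.80% and 19.5% in a region 165 bp away, and so was ROOT HAIR DEFECTIVE 3 (TraesCS5D02G066300), which in Arabidopsis shapes the endoplasmic reticulum, at 0.255% and 13.7%.

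The values varied little with the distance from the gene. Under 500 bp, 55 of 79 regions were lower (69.6%, interval 58.2 to 79.5), from 500 to 1500 bp 73 of 100 (73.0%, 63.2 to 81.4) and over 1500 bp 62 of 82 (75.6%, 64.9 to 84.4). The medians of the difference were -10.9, -10.7 and -10.2 points. Each interval contains the shares of the other classes. Across the 261 regions, which share both libraries, the absolute difference and the distance had a Spearman rho of -0.0036. The 4 nearest regions with levels, 8 to 10 bp from TraesCS3B02G136800, TraesCS4A02G033900, TraesCS6B02G214200 and TraesCS4D02G320000, were lower, with control levels of 9.32% to 53.1% and ultrasound levels of 0.125% to 8.99%. At the far end, TraesCS3A02G012200 at 2980 bp was higher, and TraesCS7A02G448700 and TraesCS5B02G540700, at 2927 and 2919 bp, were lower. More of the listed regions lay near the gene than far from it, with no count of all CHH sites by distance to set beside this. Of the 287, 52 lay within 250 bp, or 18.1%, 38 between 250 and 500 bp, or 13.2%, and 13 between 2750 and 3000 bp. Among the 245 labelled upstream the 2 nearest bins held 32 and 46, or 13.1% and 18.8%, the reverse order.

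**Figure D3:**
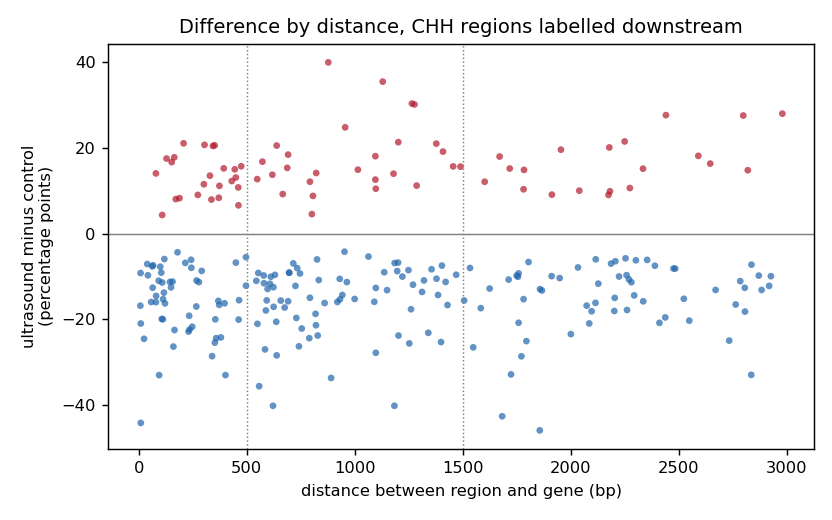
Difference in CHH methylation, ultrasound minus control in percentage points (y axis), against the distance between region and gene in bp (x axis) for 261 regions labelled downstream, with dotted lines at 500 and 1500 bp. Lower (blue) and higher (red) regions occur along the whole range, with medians of -10.9, -10.7 and -10.2 points in the 3 classes.

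The 3 subgenomes of hexaploid wheat, A, B and D, had similar shares. In A, 65 of 84 regions were lower (77.4%, 67.0 to 85.8), in B 65 of 90 (72.2%, 61.8 to 81.1) and in D 56 of 81 (69.1%, 57.9 to 78.9). The medians of the difference were -11.4, -9.76 and -11.0 points. Labelled upstream, the shares of A, B and D were 77.6%, 81.3% and 83.5%, an opposite order. No difference between subgenomes was tested, and the intervals overlap.

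Among CHH regions, those labelled downstream had the smallest share lower. It was 72.8% (67.0 to 78.1), against 80.8% (75.0 to 85.7) of 224 regions labelled upstream and 78.7% (72.0 to 84.4) of 183 that overlapped a gene. These intervals overlap, and no test was made, since regions of the same pair of libraries do not stand for plants. Regions labelled downstream in the other contexts were lower in 75.9% of 340 CHG cases and 69.9% of 123 CpG cases.

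**Figure D4:**
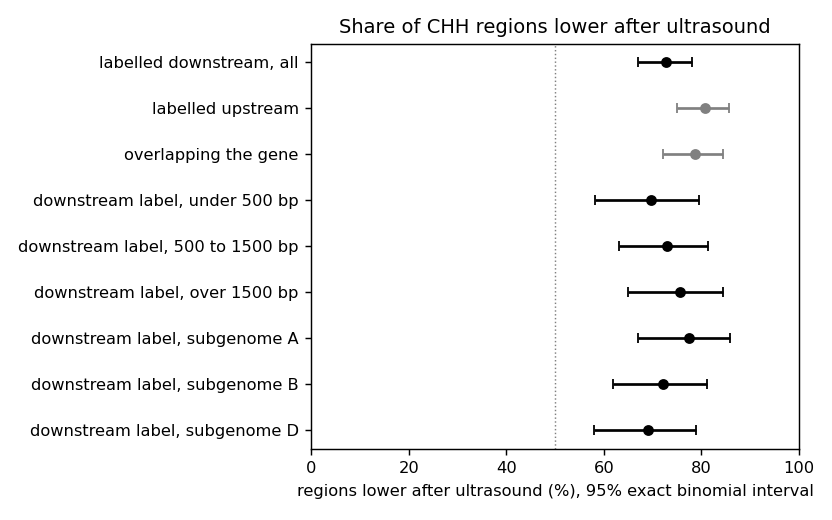
Share of CHH regions lower in the ultrasound library in percent (x axis) with 95% exact binomial intervals over regions, for regions labelled downstream, upstream or overlapping and for the downstream label by distance and subgenome; the dotted line marks 50%. All shares lie between 69.1% and 80.8% and every interval lies above 50%.

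Single chromosomes varied more, on few regions each. On 1A all 9 regions with levels were lower, on 4A all 12 and on 6A all 5. On 3A 8 of 14 were higher, with a median difference of 6.85 points, and on 6D 4 of 8, with a median of 1.20 points. Among the regions labelled upstream or overlapping, 15 of 18 were lower on 3A and 8 of 11 on 6D, with medians of -11.5 and -12.2 points. On 1A 10 of 16 of those were lower, on 4A 21 of 25 and on 6A 12 of 15, so the order of the chromosomes was not the same in both sets. These chromosomes were picked after all 22 sets, unplaced sequence included, had been seen, and the interval for the share lower on 3A was 17.7 to 71.1%.

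**Figure D5:**
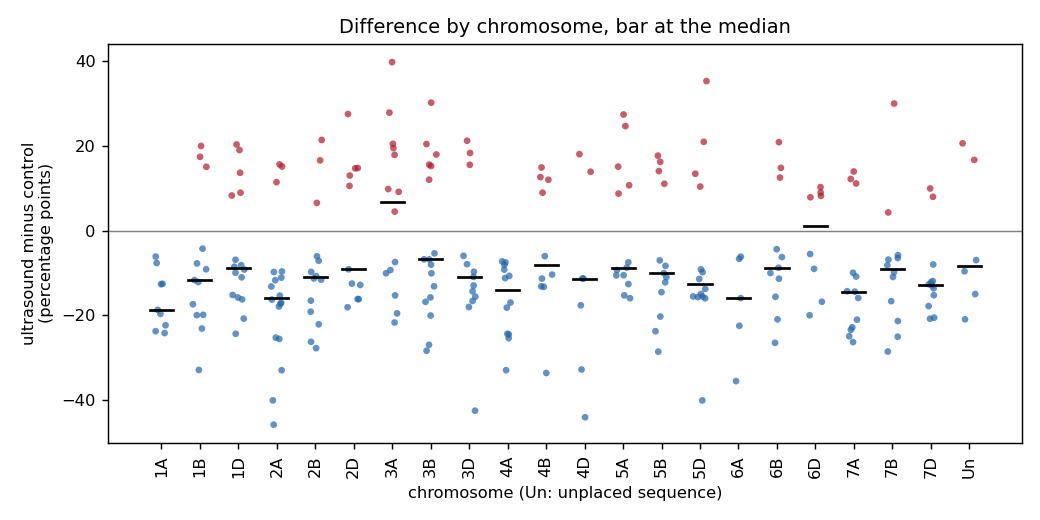
Difference in CHH methylation, ultrasound minus control in percentage points (y axis), of each region labelled downstream by chromosome (x axis), with a black bar at the median. The bar lies above 0 on 3A (6.85 points) and 6D (1.20 points) and below 0 on the others.

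Neighbouring CHH regions of the same gene could go opposite ways. At TraesCS5A02G347300 the 2 adjoining regions given above were at 1.19% in control and 16.3% in ultrasound, and at 10.8% and 0.253%. TraesCS1D02G103200 had a region 371 bp away listed at 0 and at 8.31%, and another 2476 bp away at 8.13% and listed at 0. In each of these genes one region was higher and the other lower. At TraesCS6A02G316500 both regions, 3 bp apart, were lower, at 18.8% and 2.91% and at 38.7% and 3.18%. TraesCS5B02G328600 had a region labelled downstream at 0.749% and 17.0% and an overlapping one at 20.7% and 0.745%. Of the 4 pairs of CHH regions at the same gene that included a member, 3 were opposite. Of the 6 CHH pairs with levels within 10 kb that included a member, 3 had the same direction and 3 the opposite one. In the wider set, TraesCS2B02G609600 and TraesCS4A02G142000 were lower together with a region of a neighbouring gene. Over all CHH regions 77.1% were lower and 22.9% higher, so some pairs are opposite in any case. Pairs without a member are not given here, and these pairs are too few for a share.

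Few members coincided with listed CpG or CHG regions. Of the 287, 6 overlapped one, or 2.09%, beside 2.04% of the CHH regions labelled upstream and 3.85% of those overlapping a gene. Counting also regions of the same gene that do not overlap, 9 pairs of a member with a CpG or CHG region had both levels, and 8 had the same direction, among them all 4 overlaps. The contexts read the same libraries, so this is no independent check. Most regions were lower in every context, so many pairs share a direction in any case. The shares lower were 77.1% of all CHH regions, and 75.9% of CHG and 69.9% of CpG regions labelled downstream. The same count of pairs for the other CHH regions is not given here. At TraesCS6B02G214200 CHH was at 23.1% in control and 2.20% in ultrasound, and CHG at 33.4% and 11.1% in a region that holds it. At TraesCS4A02G474900 CHH was at 17.0% and listed at 0, and CHG at 22.4% and 7.32%. At TraesCS7D02G446600 CHH was at 12.2% and listed at 0, and an overlapping CHG region at 11.1% and 3.15%. In each of these genes the ultrasound level was higher for CHG than for CHH. The CHG and CHH regions differ in extent and their coverage is unknown. The single opposite pair was at TraesCS5B02G034200, with CHH at 24.9% and 1.13% in a region labelled downstream and CHG at 8.16% and 21.3% in one labelled upstream.

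A level was missing for 26 members, in the control library alone for 19, in the ultrasound library alone for 3 and in both for 4. They are in no share or median above. Of the 19 with an ultrasound level only, 16 were under 3%, and the highest was 33.7%, 3 bp from TraesCS2D02G029700. With a control level only, TraesCS2B02G366500 was at 2.73%, a serine/threonine-protein kinase gene (TraesCS2B02G533400) at 25.5% and TraesCS3B02G285100 at 22.0%.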

How the data were processed

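The authors deposited lists of regions for CpG, CHG and CHH with a methylation level in percent per region and library, per the file headers. The tools of the authors were Bismark 0.23.1, Trim Galore 0.6.7, edgeR and FastQC 0.11.9, per the submitters' processing notes, which give no roles. Per the labels' protocols, libraries were made by enzymatic conversion, while titles read WGBS. Every region carries the value 2 for the lists of the authors that held it, which by name come from edgeR and a chi-square test, per the file headers. Thresholds, coverage, the definition of a region and the genome build: not given in the sources used here. This selection removes small differences. Depth is unknown, so no interval covers read error.

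Differences are ultrasound minus control, from 1 library each, in regions with both levels. Shares have exact Clopper-Pearson and medians order-statistic intervals (Python 3.11.15, SciPy 1.17.1, pandas 2.3.3). Both were tested on simulated data with independent regions, the median intervals only on differences of a single sign, unlike the differences reported. Distances of 500 and 1500 bp fall in the middle class. The side of the gene was checked from strand, distance and position. None of the gene identifiers matched the reference table, and no sequence is shown because no genome was used here. Members and word groups were chosen with earlier results of these data known. Named genes are the 8 largest decreases and increases, the 20 described genes with the largest differences, the nearest (with a tie, 4), farthest, smallest and unpaired members, and genes listed again; further described genes, chromosomes and the order by role were chosen after their values were seen.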

Additional observations from a re-analysis of the deposited data

How the results depend on the processing

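No result changed direction under the alternatives, and 24 of 31 values stayed within the interval of the value reported. Many alternatives kept nearly all of the 261 regions and could hardly leave it, so this count is no measure of robustness. Taking each gene once or merging neighbours left 258, leaving out unplaced sequence 255, and leaving out regions near CpG or CHG regions 251. The median difference was -13.3 points among regions differing by at least 10 points and -27.4 among those differing by at least 25, as those minima remove small differences by construction. The mean in place of the median was -7.04 points. With near 0 set at under 1%, the shares were 62.6% of lower and 73.2% of higher regions, and at under 5% they were 97.4% and 100%. The share lower was 70.5% to 76.7% over its alternatives, which were the minimum differences, each gene once, neighbours merged, and leaving out levels of 0, unplaced sequence or regions near CpG and CHG regions. No paired analysis was possible because the lists hold 1 library of each group. For the same reason no library could be left out, and a coverage minimum could not be set without coverage.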
